A study of Rattus norvegicus with 18 samples.

Results

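The genes described here are 32 genes that make sterols and fatty acids or control their synthesis, measured in cultured rat hippocampal neurons with reduced MEF2 and after membrane depolarization. The members were chosen by gene symbol in the annotation of the array's probe sets (each a set of short probes summed up in 1 signal), and each gene was read from its probe set with the highest mean signal. Of the 32 listed genes, 31 had such a probe set, out of 14218 genes with a symbol on the array, and all 31 were bright enough to be tested among 10934 genes. Hmgcs1, the enzyme that makes the precursor of mevalonate, had no probe set matched by its symbol and was not analysed here. By role, 5 of the tested members control SREBP, 7 belong to the mevalonate and isoprenoid steps, 11 lead from squalene to cholesterol, 7 make or modify fatty acids, and 1, Stard4, carries sterols between membranes.

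The 18 arrays fall into 6 groups of 3. Dissociated hippocampal neurons received lentivirus on day 3 in culture with either control shRNAs (the control arm) or shRNAs that target MEF2 (the RNAi arm). On day 10 every culture was given the NMDA receptor blocker AP5 and the sodium channel blocker TTX for 1 h. KCl at 55 mM, which depolarizes the membrane, was then added for 0, 1 or 6 h, so the 0 h groups are neurons silenced by the blockers. All groups therefore share the virus and the blockers. No group was kept without KCl for the further 1 or 6 h. An effect of KCl and one of the time since the blockers were given cannot be told apart. The labels call the 3 arrays of a group biological replicates and do not describe the cultures further, so p-values measure the spread between these arrays. The study set out to find activity-regulated genes under MEF2 control.

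Sterols and fatty acids are built from acetyl-CoA. SREBP transcription factors raise the genes of both pathways: they sit in the endoplasmic reticulum membrane bound to the escort protein Scap, and Insig proteins hold the complex there while sterols are plentiful. When sterols run low, Scap carries SREBP to the Golgi, where it is cut and freed to enter the nucleus. In the brain cholesterol is made locally, by astrocytes as well as by neurons, because lipoprotein cholesterol of the blood does not cross into it.

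Within groups, the correlation between arrays in log2 signal over the 10934 genes tested was 0.987 to 0.996. The knockdown was examined at the RNA of its targets. Mef2a in the RNAi arm was at 32.8%, 26.5% and 27.6% of control at 0, 1 and 6 h, and Mef2d at 69.5%, 74.7% and 67.5% (limma, adjusted p at most 0.00138). Neuron markers were bright, with 9 of 10 tested. The cultures also held astrocyte RNA, with a median Gfap signal of 10860. The filter was passed by 5 of 8 microglia markers, 6 of 9 oligodendrocyte lineage markers and 7 of 9 markers of endothelial cells and fibroblasts. Passing took 3 arrays above a cutoff of 154.4 to 163.7, which alone does not show that RNA of these cells was present. Medians of Itgam and Csf1r (160 and 157) lay at the cutoff. Those of Cldn5, Kdr and Col3a1 (116.8, 143.7 and 125) lay below it. Among markers that did not pass were Ptprc, Tyrobp, Cx3cr1, Mog, Mag, Olig2, Pecam1 and Tek.

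Depolarization for 1 h raised 1 member in the control arm and 3 in the RNAi arm, and lowered none. Calls were made in limma where the adjusted p over all genes tested fell under 0.05. The count of 1 higher and 0 lower of 31 compares with 1.19% of all genes called higher and 1.51% called lower with control shRNAs, and 3 higher and 0 lower with 1.23% and 2.64% with MEF2 shRNAs. At an unadjusted p under 0.05 the members numbered 5 and 9 of 31, against 1288 and 1690 of 10934 over all genes. Under quantile normalization the split of all genes in the RNAi arm was 1.5% higher and 1.89% lower.

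Idi1, the isomerase that makes the building blocks of isoprenoids interconvertible, was the gene called in both arms. Its signal on control replicates 1, 2 and 3 was 8338, 7611 and 6688 at 0 h and 11043, 10429 and 10065 at 1 h. In the RNAi arm it was 5619, 6869 and 5750 at 0 h and 9075, 10210 and 9246 at 1 h. The arrays of the 2 times did not overlap in either arm. The rise was 0.48 in log2 (SE 0.093, 1.40-fold, adjusted p = 0.00695) in the control arm and 0.65 (SE 0.093, 1.57-fold, adjusted p = 0.000464) in the RNAi arm. With control 0 h and 1 h arrays fitted alone the control rise did not pass (adjusted p = 0.0786).

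Insig1, whose protein holds SREBP back, gave the largest early rise of the RNAi arm. Its signal there was 3182, 3250 and 2073 at 0 h and 5698, 6689 and 5632 at 1 h, a rise of 1.11 in log2 (SE 0.158, 2.16-fold, adjusted p = 0.000443). In the control arm it was 5546, 5016 and 4281 at 0 h and 8479, 7201 and 6988 at 1 h. That difference was 0.61 in log2 (SE 0.158) with an adjusted p of 0.0506, just outside the threshold, although no 1 h array was as low as any 0 h array. With the replicate number as a block it passed (adjusted p = 0.00141).

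Sc5d, a sterol desaturase late in cholesterol synthesis, was at 2014, 2318 and 2063 at 0 h and 2654, 3367 and 2955 at 1 h in the RNAi arm, a rise of 0.48 in log2 (SE 0.094, 1.40-fold, adjusted p = 0.00633), which did not pass with the mean of its probe sets (adjusted p = 0.0989) or with the 2 groups fitted alone (adjusted p = 0.0562). One of its other probe sets behaved differently at 6 h, as given with the later time. Stard4 differed by 0.83 in log2 in the control arm (SE 0.244, adjusted p = 0.0938) and 0.75 in the RNAi arm (adjusted p = 0.111), and passed with the block in both arms (adjusted p = 0.00378 and 0.00644). The block raised the count of called members from 1 to 4 in the control arm, where Cyp51 was the other addition, and from 3 to 7 in the RNAi arm, with 6 higher and 1 lower, where Mvd and Sqle, higher, and Elovl6, lower, were added besides Stard4. Without control 0 h replicate 1 the control count was 2. Srebf1 was at -0.10 and -0.22 in log2 at 1 h in the control and RNAi arms, Srebf2 at -0.08 and 0.02, Scap at -0.07 and 0.00, and Insig2 at -0.08 and 0.08, none called.

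Promoter sequences are shown for 3 of the genes that rose, Insig1, Idi1 and Sc5d, and for Nsdhl, which fell at the later time. These 4 were picked for holding motif matches that recur among the members, so no link of motif to response can be read from them. Each is the 250 bases before the RefSeq gene start in assembly GRCr8, 5′ to 3′ on the gene's strand: chr4:8057770-8058019 on the minus strand, chr17:66547525-66547774 on the minus strand, chr8:51538278-51538527 on the minus strand, and chrX:155817110-155817359 on the plus strand. Capitals mark matches on either strand to CCAAT (the NF-Y motif, ATTGG when read on the other strand), CACGTG (an E-box) and TGANTCA (the AP-1 motif), none of which overlap here.
Insig1: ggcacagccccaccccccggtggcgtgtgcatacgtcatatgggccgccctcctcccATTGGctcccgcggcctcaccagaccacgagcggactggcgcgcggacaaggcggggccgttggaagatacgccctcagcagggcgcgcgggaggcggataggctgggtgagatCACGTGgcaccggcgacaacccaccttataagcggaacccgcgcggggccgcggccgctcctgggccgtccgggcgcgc
Idi1: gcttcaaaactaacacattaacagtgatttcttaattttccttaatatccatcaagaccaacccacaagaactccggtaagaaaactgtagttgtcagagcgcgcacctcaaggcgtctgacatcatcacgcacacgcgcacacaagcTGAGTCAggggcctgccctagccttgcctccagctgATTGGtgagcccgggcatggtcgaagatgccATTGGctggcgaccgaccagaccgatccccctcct
Sc5d: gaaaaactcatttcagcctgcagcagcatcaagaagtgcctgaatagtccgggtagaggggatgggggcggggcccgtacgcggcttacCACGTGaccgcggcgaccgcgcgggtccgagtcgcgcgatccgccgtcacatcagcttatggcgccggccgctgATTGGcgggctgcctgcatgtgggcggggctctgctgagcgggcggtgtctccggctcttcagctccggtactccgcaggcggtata
Nsdhl: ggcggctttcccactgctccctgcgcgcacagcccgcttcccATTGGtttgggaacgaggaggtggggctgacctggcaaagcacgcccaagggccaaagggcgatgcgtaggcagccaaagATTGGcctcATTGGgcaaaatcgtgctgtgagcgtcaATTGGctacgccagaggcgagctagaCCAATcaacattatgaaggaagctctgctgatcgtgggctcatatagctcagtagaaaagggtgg
The E-box of Insig1 starts 79 bases before the gene start and that of Sc5d 161 bases before it. Idi1 has an AP-1 match at 102 bases and CCAAT matches at 66 and 35 bases before the start. Nsdhl has 5 CCAAT matches, the nearest at 65 bases.

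RefSeq windows from 250 bases before to 50 bases after the start were listed for 25 of the 32 members, Hmgcs1 included. CCAAT was in 19 of the 25 (76.0%), against 37.5% of 33469 windows of all genes and 37.0% of 10305 windows of tested genes. The 19 are spread over the roles: Insig1, Insig2, Srebf1 and Srebf2 among the regulators, Hmgcs1, Mvk, Mvd, Idi1, Fdps and Ggps1 among the mevalonate genes, Lss, Msmo1, Nsdhl, Tm7sf2, Ebp, Sc5d and Hsd17b7 on the way to cholesterol, and Acly and Fads1. They include genes that rose, genes that fell with KCl, and genes called in no comparison of the main fit, such as Mvk. Cyp51, which rose, had no match to any of the motifs searched. CACGTG was in 3 (12%: Insig1, Sc5d and Scap) against 6.42% of all and 9.34% of tested windows, and TGANTCA in 2 (8%: Idi1 and Msmo1) against 7.33% and 4.94%. None of the member windows matched 1 form of the sterol regulatory element, TCACNCCAC, the CRE, TGACGTCA, or the MEF2 site. These letters were in 1.12%, 1.83% and 3.29% of all windows and 1.02%, 3.15% and 1.53% of tested windows. At shares this low, no match among 25 members says little. A match is a description of the sequence and not a bound site.

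After 6 h of KCl members moved both ways. In the control arm 9 members rose and 6 fell, and in the RNAi arm 10 rose and 8 fell. With the replicate block the control arm gave 11 higher and 11 lower, against 20% and 30.3% of all genes. Of the control 6 h arrays, leaving out replicate 1 gave 11 and 4, and replicate 2 gave 7 and 8. Of the control 0 h arrays, replicate 3 gave 7 and 7, and replicates 1 and 2 gave 9 and 4 each. The RNAi split was 10 and 5 without RNAi 0 h replicate 1 or 2 or RNAi 6 h replicate 3. The largest fall in both arms was in Srebf1, to 40.6% and 41.4% of its 0 h level. The largest rises were in Stard4 (2.25-fold) in the control arm and Sc5d (2.04-fold) in the RNAi arm. Over all genes, calls made up 16.1% higher and 25.5% lower with control shRNAs, and 14.7% and 25.3% with MEF2 shRNAs, so with 31 members the count of 9 and 10 higher is 29.0% and 32.3% of them, and the counts lower are 19.4% and 25.8%. The median change over the 31 members was -0.10 and 0.04 in log2, against -0.03 (control) and -0.02 (RNAi) over all genes. In these bulk samples fewer cells of a type and less RNA per cell cannot be told apart. At this time 1 of 9 neuron markers rose and 1 fell in the control arm (11.1% each), against 16.1% and 25.5% of all genes. In the same arm 0 of 9 astrocyte markers rose and 1 fell (11.1%), and 2 of 7 endothelial and fibroblast markers (28.6%) rose. The latter list holds the dim Cldn5, Kdr and Col3a1. The part of these markers in the result was not tested.

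**Figure D1:**
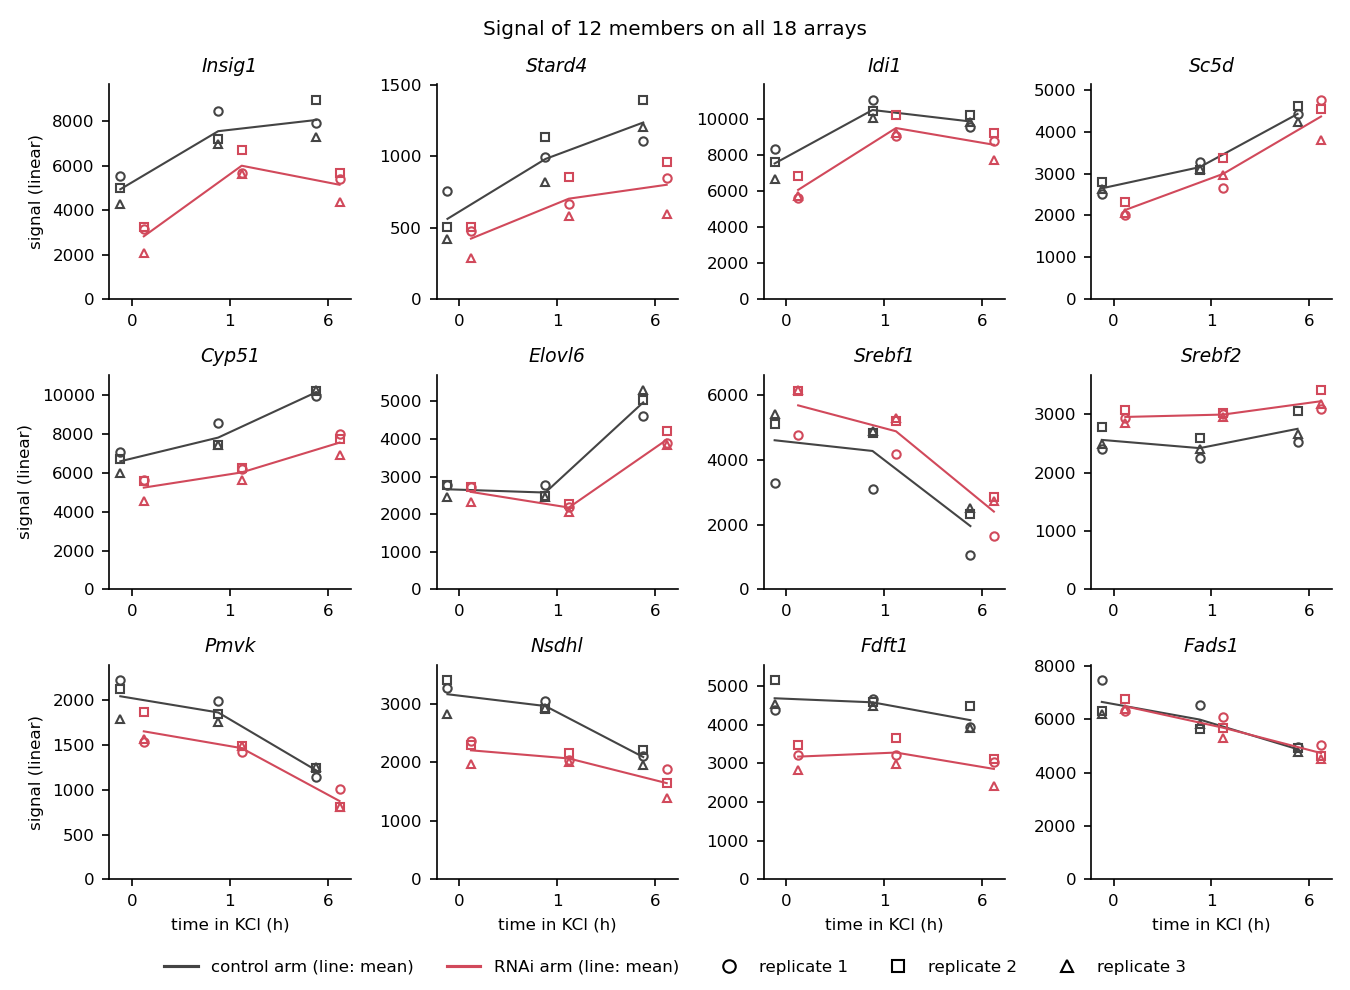
Signal of 12 members on each of the 18 arrays (vertical axis, linear array signal) at 0, 1 and 6 h of KCl (horizontal axis, times as categories), with circles, squares and triangles for replicates 1, 2 and 3, gray for the control arm, red for the RNAi arm, and lines through the group means. Srebf1 is lowest at 6 h in both arms, while Insig1 and Idi1 are already higher at 1 h and Elovl6 is higher at 6 h.

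Among the regulators, Srebf1, which encodes SREBP-1, the main driver of fatty acid genes, was at 3292, 5118 and 5425 on control replicates 1, 2 and 3 at 0 h and at 1057, 2318 and 2504 at 6 h. With MEF2 shRNAs it was at 4786, 6132 and 6151 at 0 h and at 1642, 2858 and 2722 at 6 h. Replicate 1 was the lowest in all 6 groups, and no 6 h array reached the lowest 0 h array of its arm. The change was -1.30 in log2 (SE 0.302, 2.46-fold lower, adjusted p = 0.00254) in the control arm and -1.27 (SE 0.302, 2.42-fold lower, adjusted p = 0.00306) in the RNAi arm. A dimmer probe set of Srebf1 gave -1.20 and -1.24, both called. Within replicate numbers the control change was -1.64, -1.14 and -1.12.

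Insig1 was the regulator that rose. It reached 7938, 8938 and 7301 with control shRNAs and 5401, 5663 and 4386 in the RNAi arm at 6 h, above every 0 h array of the same arm. The rise was 0.71 in log2 (SE 0.158, 1.63-fold, adjusted p = 0.00186) and 0.88 (1.84-fold, adjusted p = 0.000322). Srebf2, which encodes SREBP-2, the main driver of sterol genes, differed by 0.10 in log2 in the control arm and 0.12 in the RNAi arm, with adjusted p of 0.335 and 0.214. Scap was at -0.11 and -0.05, and Insig2 at -0.16 and 0.11, none called. A dimmer probe set of Insig2 did rise, by 0.57 and 0.71 in log2 (adjusted p = 5.05e-05 and 6.77e-06 over all probe sets), so the 2 probe sets of Insig2 disagree. Their mean turned the control value to 0.20 (adjusted p = 0.0653) and was called at 0.41 in the RNAi arm (adjusted p = 0.00108). The mean of the Scap probe sets was likewise above 0, at 0.09 and 0.12, and not called.

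Of the 7 mevalonate and isoprenoid genes, 2 rose and 1 fell in the control arm, and 3 rose and 1 fell in the RNAi arm. These are 28.6% and 14.3% in the control arm, against 16.1% and 25.5% of all genes. In the RNAi arm they are 42.9% and 14.3%, against 14.7% and 25.3%. Pmvk, the kinase that acts on phosphomevalonate, was the one that fell: its signal was 2220, 2124 and 1786 at 0 h and 1148, 1246 and 1260 at 6 h in the control arm. With MEF2 shRNAs it was 1530, 1866 and 1561 and then 1009, 812 and 804. The change was -0.74 in log2 (SE 0.102, 1.67-fold lower, adjusted p = 2.53e-05) and -0.92 (1.89-fold lower, adjusted p = 3.51e-06), with no overlap of the times.

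Idi1 stayed above its 0 h level, by 0.39 in log2 in the control arm (adjusted p = 0.00286) and 0.50 in the RNAi arm (adjusted p = 0.000457). Ggps1, which makes the geranylgeranyl chain attached to small GTPases, was at 254, 309 and 317 at 0 h and 409, 437 and 424 at 6 h in the RNAi arm, a rise of 0.54 in log2 (SE 0.089, 1.45-fold, adjusted p = 0.000172). In the control arm the rise was smaller, 0.26 (adjusted p = 0.028), and its call was lost without control 0 h replicate 2 or 3 or control 6 h replicate 2 or 3 (adjusted p 0.0604 to 0.138). Mvd, the decarboxylase before Idi1, rose in the RNAi arm by 0.60 (SE 0.142, 1.51-fold, adjusted p = 0.00312). In the control arm Mvd differed by 0.36 (adjusted p = 0.0533), and passed with the replicate block (adjusted p = 0.000845). Mvk, Fdps and Acat2 were called in neither arm, and Mvk passed with the block in the control arm at -0.28 (adjusted p = 0.0246).

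The steps from squalene to cholesterol moved both ways, 4 genes up and 1 down in the control arm and 4 up and 4 down in the RNAi arm. These are 36.4% and 9.09% of the 11 genes in the control arm, against 16.1% and 25.5% of all genes. In the RNAi arm they are 36.4% and 36.4%, against 14.7% and 25.3%. Sc5d was at 2506, 2803 and 2633 at 0 h and 4424, 4615 and 4218 at 6 h in the control arm, and at 4742, 4542 and 3791 at 6 h in the RNAi arm. The rise was 0.74 in log2 (SE 0.094, 1.67-fold, adjusted p = 1.18e-05) and 1.03 (2.04-fold, adjusted p = 5.49e-07). Its other 2 probe sets gave 0.57, called, and 0.02, not called, in the control arm, so not all of them show the rise. The mean of the 3 rose by 0.44 in the control arm and 0.56 in the RNAi arm, both called.

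Cyp51, the lanosterol demethylase, was at 7066, 6719 and 5969 at 0 h and 9947, 10218 and 10224 at 6 h in the control arm, a rise of 0.62 in log2 (SE 0.093, 1.54-fold, adjusted p = 5.47e-05). In the RNAi arm it went from 5622, 5555 and 4520 to 7998, 7736 and 6901, a rise of 0.53 (adjusted p = 0.000256). Msmo1, which removes sterol methyl groups, rose by 0.38 and 0.33 (adjusted p = 0.00777 and 0.0177), and Sqle, squalene epoxidase, by 0.26 and 0.36 (adjusted p = 0.0153 and 0.00156). The Sqle call of the control arm was lost without control 6 h replicate 2 or control 0 h replicate 3 (adjusted p = 0.0719 and 0.0813). The Msmo1 call of the RNAi arm was lost without RNAi 6 h replicate 1 or 2 or RNAi 0 h replicate 3 (adjusted p up to 0.101).

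Nsdhl, a dehydrogenase of the same demethylation steps, fell. Its control signal was 3273, 3400 and 2821 at 0 h and 2106, 2217 and 1953 at 6 h, a change of -0.59 in log2 (SE 0.101, 1.51-fold lower, adjusted p = 0.000196). With MEF2 shRNAs it was 2358, 2293 and 1969 and then 1890, 1653 and 1395, a change of -0.43 (adjusted p = 0.00296). Tm7sf2, a sterol reductase, fell in the RNAi arm from 1795, 1812 and 1365 to 1086, 1104 and 1048, by 0.61 in log2 (1.52-fold lower, adjusted p = 0.000649). In the control arm Tm7sf2 was at -0.29 (adjusted p = 0.0564) and passed with the block (adjusted p = 0.0253).

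Hsd17b7 and Ebp were called lower in the RNAi arm at -0.39 and -0.29 in log2 (adjusted p = 0.0299 and 0.0484), and did not pass under quantile normalization (0.0552 and 0.145). In the control arm they were at -0.35 and -0.27 (adjusted p = 0.0506 and 0.0558), and passed with the block (0.00398 and 0.0253). With the mean of its probe sets Hsd17b7 was at -0.25 in the RNAi arm (adjusted p = 0.0929). The Hsd17b7 call was lost without RNAi 0 h replicate 1 or 2 or RNAi 6 h replicate 3, and the Ebp call without RNAi 0 h replicate 1 or 2 or RNAi 6 h replicate 2 or 3 (adjusted p up to 0.247). Fdft1, squalene synthase, differed by -0.18 in the control arm and -0.16 in the RNAi arm, neither called, and the control difference passed with the block (adjusted p = 0.0356). A dimmer probe set of Fdft1 was called at -0.56 and -0.51. Lss and Dhcr7 were called in neither arm, and Lss passed with the block in the control arm at 0.29 (adjusted p = 0.0225).

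Of the 7 fatty acid genes, 1 rose and 3 fell in the control arm, and 1 rose and 2 fell in the RNAi arm. These are 14.3% and 42.9% in the control arm, against 16.1% and 25.5% of all genes. In the RNAi arm they are 14.3% and 28.6%, near the 14.7% and 25.3% of all genes. Elovl6, which elongates palmitate, was the one that rose. It was at 2764, 2776 and 2447 at 0 h and 4598, 5028 and 5289 at 6 h in the control arm, and at 2734, 2723 and 2319 and then 3889, 4219 and 3828 in the RNAi arm. The rise was 0.90 in log2 (SE 0.081, 1.87-fold, adjusted p = 3.75e-07) and 0.62 (1.54-fold, adjusted p = 1.76e-05). A second probe set gave 1.19 and 0.80, both called.

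Fads1, a desaturase of polyunsaturated fatty acids, was at 7450, 6292 and 6199 at 0 h and 4958, 4909 and 4767 at 6 h in the control arm, a change of -0.44 in log2 (SE 0.079, 1.36-fold lower, adjusted p = 0.000302). In the RNAi arm the change was -0.46 (adjusted p = 0.00025). Acly, which makes cytosolic acetyl-CoA, was called at -0.25 and -0.23 (adjusted p = 0.0203 and 0.0361), and Acaca, which commits acetyl-CoA to fatty acids, at -0.23 in the control arm (adjusted p = 0.0473). Acaca did not pass with the mean of its probe sets (-0.10, adjusted p = 0.607), without the filter (0.064) or with the groups compared alone (0.113), and was lost without control 0 h replicate 1, 2 or 3 or control 6 h replicate 1 (adjusted p up to 0.265). Acly was lost without control 0 h replicate 1 or 2 or control 6 h replicate 1 or 3 (up to 0.0898), and in the RNAi arm without any of the RNAi 0 h arrays or RNAi 6 h replicate 3 (up to 0.159). Fasn, Scd and Fads2 were called in neither arm.

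Stard4 was at 760, 507 and 423 at 0 h, 995, 1133 and 818 at 1 h and 1111, 1392 and 1209 at 6 h in the control arm. With MEF2 shRNAs it was at 477, 509 and 289, then 670, 858 and 585, then 847, 959 and 600. The 6 h rise was 1.17 in log2 (SE 0.244, 2.25-fold, adjusted p = 0.00105) and 0.93 (1.91-fold, adjusted p = 0.00603). Of its 2 dimmer probe sets 1 gave 1.79 and 1.82, called, and the other 0.14 and 0.21, the second of them called, so the size of the rise depends on the probe set.

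**Figure D2:**
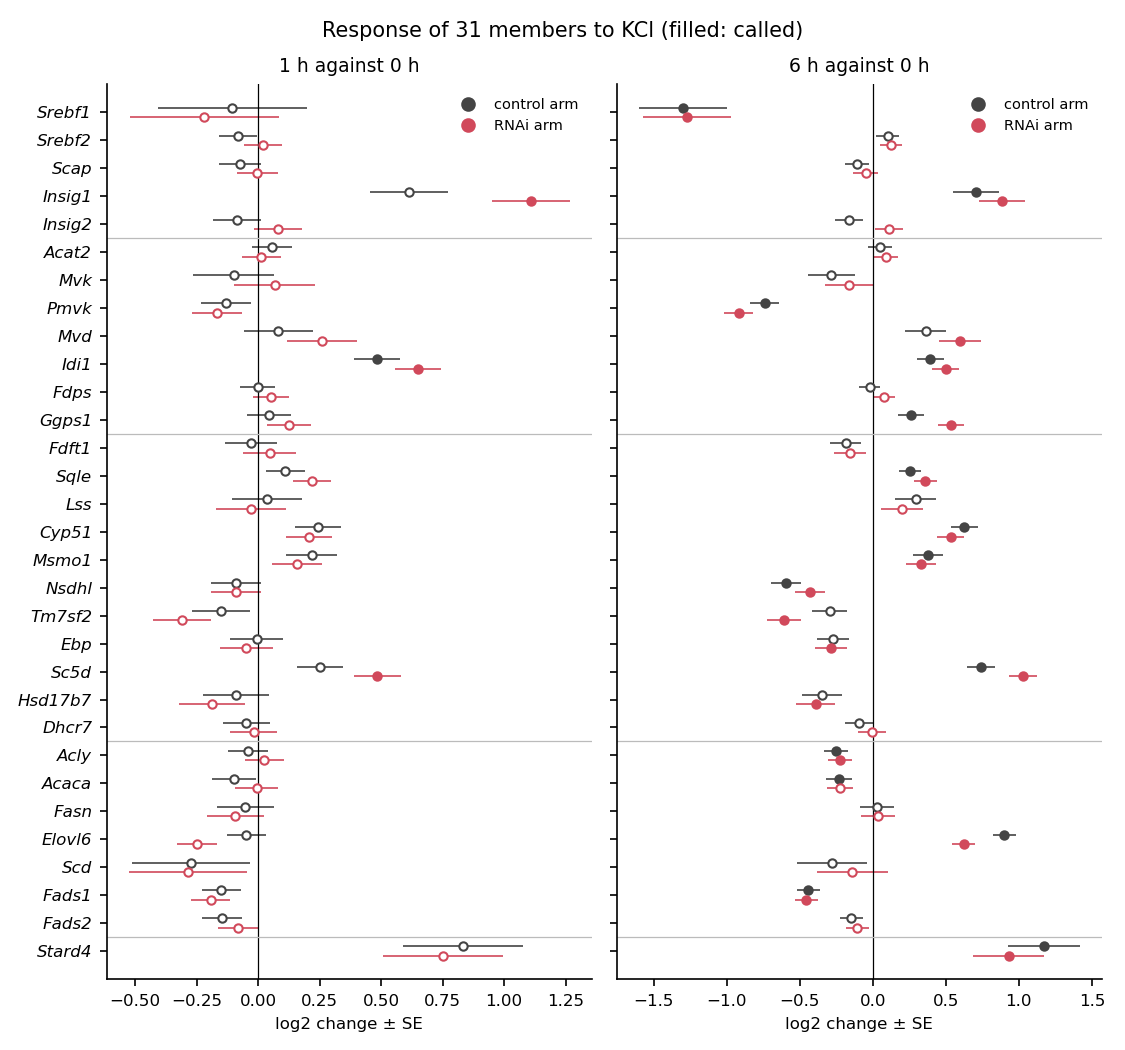
Log2 change with KCl of the 31 members at 1 h and 6 h against 0 h in the control and RNAi arms (horizontal axis, log2 change; bars, 1 standard error of the limma fit; filled points, adjusted p under 0.05), grouped by role. At 6 h Stard4, Elovl6, Sc5d and Insig1 lie farthest to the right in the control arm and Srebf1 farthest to the left in both arms.

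The 2 arms share no array, and their calls at 6 h are set side by side here. They are not independent, because same-numbered arrays of the arms deviated together (correlations of 0.505 to 0.737 at 6 h). Both also use the same estimate of spread. All 9 members called higher in the control arm were also called higher in the RNAi arm (100% of 9 and 90% of 10), where over all genes the shared calls were 69.6% and 76.1% of each list. Of the 6 called lower in the control arm 5 were called lower in the RNAi arm (83.3% of 6 and 62.5% of 8), against 80.2% and 80.7% over all genes. The member called in the control arm alone was Acaca. Those called in the RNAi arm alone were Mvd, higher, and Tm7sf2, Hsd17b7 and Ebp, lower. With the replicate block all 4 were called in the control arm too (adjusted p = 0.000845 for Mvd, 0.0253 for Tm7sf2, 0.00398 for Hsd17b7 and 0.0253 for Ebp), and Acaca was called in the RNAi arm (adjusted p = 0.0109). All 15 control calls and all 18 RNAi calls had the same sign within each of the 3 replicate numbers. Calls made on the same arrays largely entail this, so it adds no separate support.

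**Figure D3:**
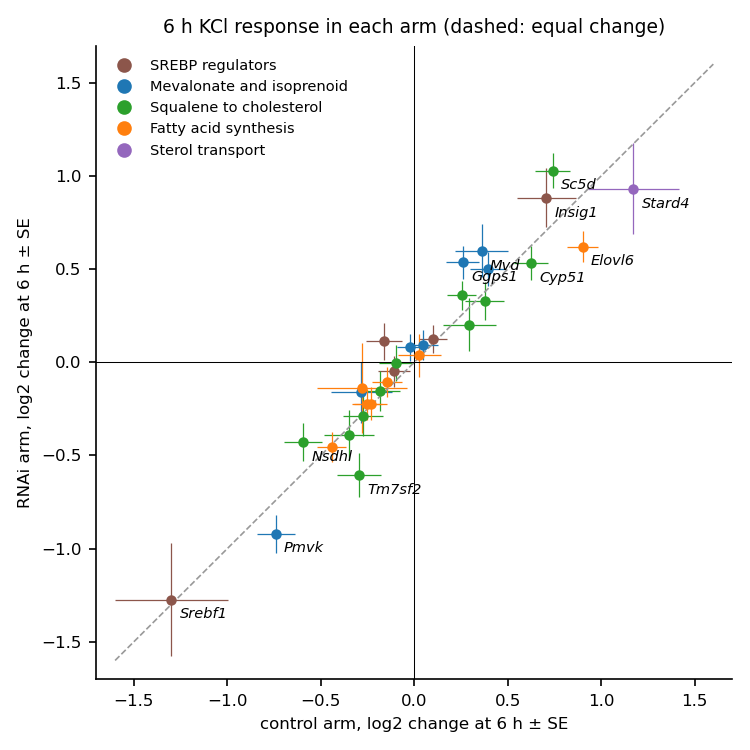
Log2 change at 6 h against 0 h of KCl for each member in the control arm (horizontal axis) and the RNAi arm (vertical axis), with the dashed line marking equal change. Srebf1 and Pmvk lie at the lower left, and Stard4, Sc5d, Insig1 and Elovl6 at the upper right.

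Between 1 h and 6 h in the control arm 3 members rose and 4 fell, against 15% and 20.4% of all genes. Elovl6 rose by 0.95 in log2 (SE 0.081, 1.93-fold, adjusted p = 4.13e-07), Sc5d by 0.49 (adjusted p = 0.000746, or 0.094 with the mean of its probe sets) and Cyp51 by 0.38 (adjusted p = 0.00444). Srebf1 changed by -1.20 (SE 0.302, adjusted p = 0.00561), Pmvk by -0.61 (adjusted p = 0.000204), Nsdhl by -0.50 (adjusted p = 0.00106) and Fads1 by -0.29 (adjusted p = 0.00858). Insig1, Idi1 and Stard4 were not called between these times, with Insig1 at 0.09 (adjusted p = 0.707). This comparison shares the 6 h arrays with the one against 0 h. With the replicate block the count was 15, 8 higher and 7 lower, by the addition of Srebf2, Mvd, Ggps1, Sqle and Lss, higher, and Ebp, Hsd17b7 and Acly, lower (adjusted p from 0.00557 to 0.0489). Over all genes the block gave 19.2% higher and 25.5% lower. Without control 6 h replicate 1 the member count was 11.

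MEF2 shRNAs went with lower levels of many but not all of the sterol genes. Averaged over the 3 times, 17 of 31 members were lower and 2 higher in the RNAi arm than in the control arm, against 16.6% of all genes lower and 20.9% higher. The 17 are 54.8% of the members. They comprised 8 of the 11 genes from squalene to cholesterol, 5 of the 7 mevalonate and isoprenoid genes, Insig1, the fatty acid genes Scd and Elovl6, and Stard4. The higher members were Srebf2 and Fasn. Dhcr7, Msmo1, Sc5d, Mvk and Fdps of the sterol and isoprenoid steps were not called. With the block Fdps, Msmo1, Sc5d and Fads2 passed as lower and Srebf1 as higher. The blocked counts were 21 lower and 3 higher, against 20.9% and 26.9% of all genes. The median difference over the members was -0.20 in log2, with 26 of 31 below 0, against 0.01 over all genes. The largest of the 17 differences was that of Insig1, at 65.9% of control. The average counts every array of an arm as a separate unit. Same-numbered arrays of the same arm deviated together across the times (correlations of 0.174 to 0.741). The p-values of the average may therefore look firmer than 3 replicates allow. A block common to both arms does not take out what is shared within an arm alone.

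Markers of other cells differed between the arms as well. Of 9 astrocyte markers 5 were higher and 0 lower with RNAi on average, with a summed signal of 37710 to 50590 on control arrays and 45020 to 56230 on RNAi arrays. Of 7 endothelial and fibroblast markers 4 were lower and 0 higher, with a summed signal of 3342 to 4237 and 2029 to 3257. Cldn5, Kdr and Col3a1 in this list were dim and passed the filter only through the arrays where they were higher, which limits this count. Of 9 neuron markers 4 were lower and 1 higher, with summed signals of 50100 to 54930 and 47310 to 54140. No oligodendrocyte lineage or microglia marker was called. The part of these differences in the result was not tested.

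**Figure D4:**
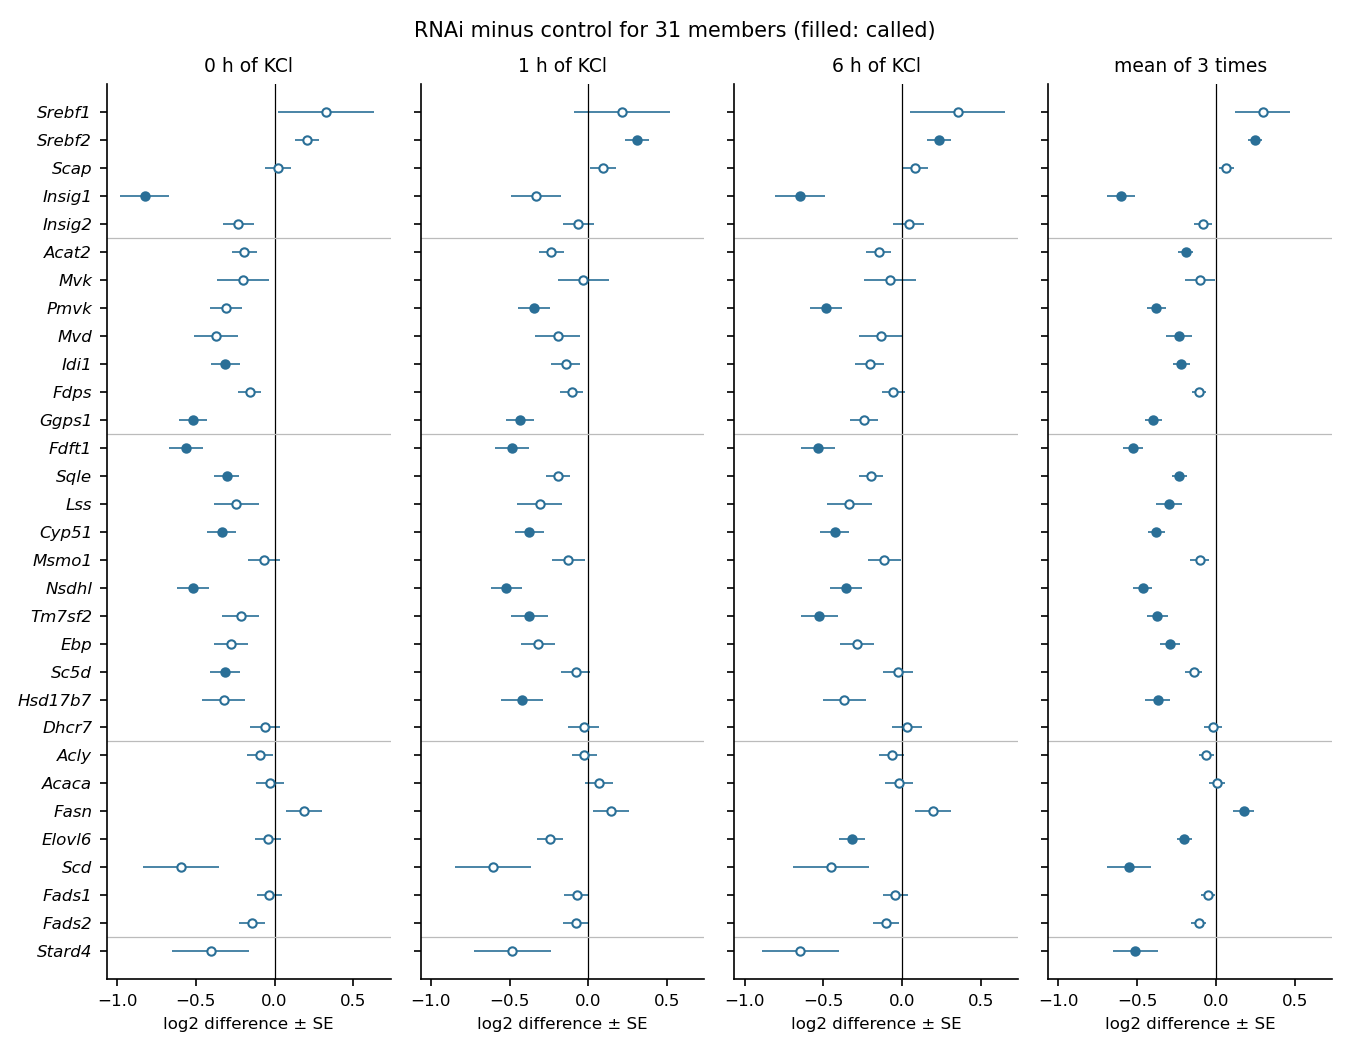
Log2 difference between the RNAi and control arms for the 31 members at 0, 1 and 6 h of KCl and averaged over the 3 times (horizontal axis, log2 difference; bars, 1 standard error of the limma fit; filled points, adjusted p under 0.05), grouped by role. Most genes from squalene to cholesterol lie left of 0 at all 3 times, and Srebf2 lies right of 0.

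Single times gave fewer calls. At 0 h, in silenced neurons, 8 members were lower and 0 higher, against 6.19% and 8.66% of all genes. At 1 h 7 were lower and 1 higher, against 9.12% and 7.98%, and at 6 h 7 were lower and 1 higher, against 8.55% and 8.67%. The replicate block raised these counts to 17 (1 higher and 16 lower), 16 (1 and 15) and 15 (1 and 14). Over all genes the block gave 15.9% higher and 10.2% lower at 0 h. It gave 14.2% and 13.9% at 1 h, and 15.3% and 12.9% at 6 h. It added Srebf2, Insig2, Acat2, Pmvk, Mvd, Fdps, Ebp, Hsd17b7 and Scd at 0 h, Insig1, Acat2, Sqle, Lss, Ebp, Elovl6, Scd and Stard4 at 1 h, and Ggps1, Sqle, Lss, Ebp, Hsd17b7, Scd and Stard4 at 6 h, all lower but Srebf2. The 0 h count was 5 without control 0 h replicate 1 or 2 and 4 without RNAi 0 h replicate 3. The 1 h count was 3 without control 1 h replicate 1, 4 without RNAi 1 h replicate 3, and 5 without control 1 h replicate 2 or RNAi 1 h replicate 1 or 2. The 6 h count was 4 without RNAi 6 h replicate 3, and 0 higher and 7 lower under quantile normalization. The log2 difference was below 0 at all 3 times for 24 of the 31 members (77.4%), against 26.4% of all genes tested, and 3 members, Fdft1, Cyp51 and Nsdhl, were called lower at every time (9.68%, against 3.61% of all genes). The 3 times share no array, but same-numbered arrays deviated together, so the times are not independent.

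Insig1 was the regulator that fell. At 0 h it was at 5546, 5016 and 4281 with control shRNAs and 3182, 3250 and 2073 in the RNAi arm, 56.5% of control (log2 difference -0.82, SE 0.158, adjusted p = 0.00234). At 6 h it was at 63.7% of control (-0.65, adjusted p = 0.01), a call lost without RNAi 6 h replicate 3 (adjusted p = 0.0515). The arms did not overlap at either time. At 1 h the difference was -0.33 (adjusted p = 0.176), and passed with the block (adjusted p = 0.0233). On average it was -0.60 (SE 0.091, adjusted p = 8.7e-05).

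Srebf2 went the other way. Its signal at 1 h was 2260, 2596 and 2410 with control shRNAs and 3001, 3028 and 2963 with MEF2 shRNAs, 124% of control with no overlap (log2 difference 0.31, SE 0.077, adjusted p = 0.0111). The call was lost without control 1 h replicate 1 (adjusted p = 0.0555). At 6 h it was at 117% (adjusted p = 0.0494), lost without control 6 h replicate 1 or 3 or any RNAi 6 h array (adjusted p up to 0.181). That call was also lost under quantile normalization (0.0713), without the filter (0.0571), with the groups compared alone (0.132) and with the mean of its probe sets (0.11 in log2, 0.304). The mean of probe sets gave 0.16 at 1 h (adjusted p = 0.109) and 0.11 on average (adjusted p = 0.0311), the other probe set of Srebf2 being too dim to test. At 0 h the difference of 0.21 did not pass (adjusted p = 0.0837) but passed with the block (adjusted p = 0.00884). On average Srebf2 was at 119% of control (adjusted p = 0.000362). Srebf1 differed by 0.30 on average (SE 0.175, adjusted p = 0.201), and passed with the block (adjusted p = 0.00365). Scap was at 0.07 and Insig2 at -0.08 on average, neither called.

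In the mevalonate and isoprenoid group Ggps1 and Pmvk differed at different times. Ggps1 was at 426, 419 and 407 with control shRNAs and 254, 309 and 317 with MEF2 shRNAs at 0 h, 69.9% of control (SE 0.089 in log2, adjusted p = 0.00108). At 1 h it was at 422, 452 and 418 and 294, 330 and 333, 74.0% of control (adjusted p = 0.00331), and at 6 h the difference was -0.24 (adjusted p = 0.0784). One of its other probe sets was at -0.24 on average, called, and the other at -0.01, not called. The mean of the 3 was -0.30 at 0 h, -0.25 at 1 h and -0.21 on average, each called. Pmvk was at 71.5% of control at 6 h (adjusted p = 0.00409) and 78.7% at 1 h (adjusted p = 0.0283). The 1 h call was lost without control 1 h replicate 1 or 2 or any RNAi 1 h array (adjusted p up to 0.108). Idi1 at 0 h was at 80.6% (adjusted p = 0.0337), with overlapping arms, and was lost without control 0 h replicate 1 or 2 or RNAi 0 h replicate 1 or 3 (adjusted p up to 0.127). On average Pmvk was at 76.9%, Ggps1 at 75.9%, Idi1 at 85.8%, Acat2 at 87.5% and Mvd at 85.1% of control. The averaged Mvd call had an adjusted p of 0.0346 and was lost in 11 of the 18 fits that left out 1 array (adjusted p up to 0.0759).

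From squalene onward Fdft1, the first enzyme committed to sterols, was lower at each time. At 0 h it was at 4382, 5145 and 4528 with control shRNAs and 3211, 3488 and 2830 with MEF2 shRNAs. At 1 h the values were 4664, 4601 and 4476 and 3216, 3648 and 2980, and at 6 h 3948, 4486 and 3922 and 3044, 3121 and 2410. The arms did not overlap at any time, and Fdft1 was at 67.7%, 71.4% and 69.1% of control (adjusted p = 0.00227, 0.00525 and 0.003). A dimmer probe set was at -0.66, -0.64 and -0.61 in log2, all called.

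Nsdhl was at 69.7%, 69.8% and 78.2% of control at 0, 1 and 6 h (adjusted p = 0.00267, 0.00233 and 0.0245). Its 6 h call was lost without control 6 h replicate 1 or 2 or RNAi 6 h replicate 2 or 3 (adjusted p up to 0.12). Cyp51 was at 79.3%, 77.2% and 74.3% (adjusted p = 0.023, 0.011 and 0.00504), lost at 0 h without control 0 h replicate 1 or 2 or RNAi 0 h replicate 3 (up to 0.119) and at 1 h without control 1 h replicate 1 or RNAi 1 h replicate 3 (up to 0.0584). Arms did not overlap at any time for either gene. Dimmer probe sets of both were lower as well, Nsdhl at -0.69 and Cyp51 at -0.53 in log2 on average, both called.

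Other steps passed at some times. Sqle and Sc5d were at 81.0% and 80.5% of control at 0 h (adjusted p = 0.0153 and 0.034). The Sqle call was lost without control 0 h replicate 1 or 2 or RNAi 0 h replicate 3 (up to 0.0806), and the Sc5d call without control 0 h replicate 2 or 3 or RNAi 0 h replicate 1 or 3 (up to 0.131). Tm7sf2 was at 77.1% at 1 h (adjusted p = 0.0394), lost without any 1 of the 6 arrays of that time (up to 0.141), and at 69.4% at 6 h (adjusted p = 0.00609). Hsd17b7 was at 74.7% at 1 h (adjusted p = 0.0433), lost without control 1 h replicate 1 or 2 or any RNAi 1 h array (up to 0.166). On average Hsd17b7 was at 77.4%, Tm7sf2 at 77.3%, Lss at 81.5%, Ebp at 81.6% and Sqle at 85.1% of control, while Dhcr7 was at 98.7%, Msmo1 at 93.2% and Sc5d at 90.7%, not called.

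Of the 7 fatty acid genes, 2 were lower and 1 higher with RNAi on average. These are 28.6% and 14.3%, against 16.6% of all genes lower and 20.9% higher, and with 7 genes such counts say little. Scd, the desaturase that makes oleate, was at 4718, 4085 and 2488 with control shRNAs and 2532, 3123 and 1765 with MEF2 shRNAs at 0 h. At 1 h it was at 3164, 3468 and 2477 and 2126, 2230 and 1628, and at 6 h at 2627, 3819 and 2677 and 2215, 2464 and 1915. Replicate 3 was the lowest of the RNAi arrays at each time, and the arms overlapped at 0 h. Scd was called at no single time, and on average was at 68.3% of control (log2 difference -0.55, SE 0.139, adjusted p = 0.00522). With the block it was called at 0, 1 and 6 h (adjusted p = 0.00268, 0.00221 and 0.0139).

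Elovl6 was at 80.1% of control at 6 h (SE 0.081 in log2, adjusted p = 0.0129), lost without control 6 h replicate 3 or RNAi 6 h replicate 3 (adjusted p = 0.0605 and 0.0514), and at 87.0% on average. Fasn, fatty acid synthase, was at 113% of control on average (adjusted p = 0.0475), a call lost in 13 of the 18 fits without 1 array (up to 0.0956). Acly, Fads1 and Fads2 were at 95.8%, 96.5% and 92.7% and Acaca differed by 0.01 in log2, none of them called. Stard4 was at 70.1% on average (log2 difference -0.51, SE 0.141, adjusted p = 0.00895), and at -0.31 with the mean of its probe sets (adjusted p = 0.0131). At 6 h its difference of -0.65 did not pass (adjusted p = 0.0822), and passed with the block (adjusted p = 0.00558).

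Whether the KCl response differed between the arms was tested as the interaction, the change with KCl in the RNAi arm minus that in the control arm. At 1 h and at 6 h 0 members were called in limma, against 0% of all genes higher and 0% lower at 1 h, and 0.0274% and 0.0915% at 6 h. At an unadjusted p under 0.05 there were 1 and 3 of 31 members, close to the share over all genes (363 and 901 of 10934). Insig1 at 1 h was at 0.49 in log2 (95% interval 0.02 to 0.97, adjusted p = 1), where it rose 2.16-fold in the RNAi arm from a lower 0 h level. At 6 h Elovl6 was at -0.28 (-0.52 to -0.04, adjusted p = 0.505), Ggps1 at 0.28 (0.01 to 0.54, adjusted p = 0.59) and Sc5d at 0.29 (0.01 to 0.57, adjusted p = 0.596). For Srebf1 the 6 h value was 0.03 (-0.88 to 0.93) with an SE of 0.428, the widest error of the set at 3 arrays a group. The test does not show that the arms respond alike.

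Other genes of the same pathways were counted from 4 further lists. Of 8 tested genes of other sterol and isoprenoid steps, 1 rose and 6 fell at 6 h in the control arm (median -0.39 in log2, against -0.03 over all genes), and 1 was higher and 3 lower with RNAi on average. The shares were 12.5% higher and 75% lower at 6 h, against 16.1% and 25.5% of all genes, and 12.5% and 37.5% with RNAi, against 20.9% and 16.6%. Erg28, a scaffold of sterol demethylation, changed by -0.78 at 6 h (adjusted p = 1.65e-06) and -0.42 with RNAi (adjusted p = 4.41e-06). Acat1, the mitochondrial thiolase, and Dhdds, a dolichol enzyme, changed by -0.62 and -0.40 at 6 h (adjusted p = 0.000143 and 0.000527). Nus1, the partner of Dhdds, and Lbr, a sterol reductase of the nuclear envelope, differed by -0.33 and -0.18 with RNAi (adjusted p = 0.000321 and 0.00431).

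Of 8 tested genes of SREBP processing, 1 rose and 3 fell at 6 h, and 1 was higher and 1 lower with RNAi. These are 12.5% and 37.5% at 6 h, against 16.1% and 25.5% of all genes, and 12.5% and 12.5% with RNAi, against 20.9% and 16.6%. Mbtps2, the protease that makes the second cut in SREBP, changed by -0.50 at 6 h (adjusted p = 2.07e-05) and -0.50 with RNAi (adjusted p = 1.04e-07). Erlin2, which helps degrade membrane proteins of the endoplasmic reticulum, changed by -0.46 at 6 h and 0.21 with RNAi (adjusted p = 0.000707 and 0.00568). Fbxw7, a ubiquitin ligase subunit that marks nuclear SREBP for destruction, rose by 0.96 at 6 h (adjusted p = 0.00146). In the RNAi arm Fbxw7 was at 0.52 at 6 h (adjusted p = 0.0605).

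Of 23 other fatty acid genes tested, 5 rose and 9 fell at 6 h, and 3 were higher and 4 lower with RNAi. These are 21.7% and 39.1% of the list at 6 h, against 16.1% and 25.5% of all genes, and 13% and 17.4% with RNAi, against 20.9% and 16.6%. Mcat and Oxsm, of mitochondrial fatty acid synthesis, changed by -0.71 and -0.80 at 6 h (adjusted p = 5.56e-07 and 0.000171), and Mid1ip1, an activator of acetyl-CoA carboxylase, by -0.49 (adjusted p = 8.28e-06). With RNAi the elongase Elovl5 and the ligase Acsl1 differed by -0.39 and -0.48 (adjusted p = 6.56e-06 and 1.4e-05), and Me1, malic enzyme, by 0.29 (adjusted p = 0.000237).

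Of 16 tested genes of sterol uptake and turnover, 3 rose and 4 fell at 6 h in the control arm, and 5 were higher and 6 lower with RNAi. The shares at 6 h, 18.8% and 25%, are near the 16.1% and 25.5% of all genes, and those with RNAi were 31.2% and 37.5%, against 20.9% and 16.6%. Soat1, which esterifies cholesterol for storage, rose by 1.78 in log2 at 6 h (SE 0.102, adjusted p = 5.93e-09) and was higher with RNAi by 0.74 (adjusted p = 1.23e-07). Vldlr, a lipoprotein and reelin receptor, rose by 1.09 (adjusted p = 1.95e-08), and Nceh1, which hydrolyses cholesterol esters, changed by -0.98 (adjusted p = 2.7e-06). Abca1, a cholesterol exporter, was higher with RNAi by 0.84 (adjusted p = 2.17e-05), and Lrp8, a reelin and apolipoprotein E receptor, was at -0.37 (adjusted p = 0.000236).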

How the data were processed

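Messenger RNA was measured on 18 rat arrays. The authors' deposited table holds 1 linear intensity per probe set and array, already on a common scale. The labels give RNeasy Micro extraction and biotin-labelled cRNA, and the summary of probes and the normalization are not stated there. Signals under the table's 20th percentile (72.6) were set to it before log2 was taken, which understates changes of dim genes. Each gene was read from its probe set with the highest mean. Genes above the 40th percentile of the array on at least 3 arrays were tested.

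All 18 arrays were fitted with limma 3.58.1 in R 4.3.3 (lmFit, eBayes, 1 mean per group, 12 residual degrees of freedom), with two-sided p-values and Benjamini-Hochberg adjustment over 10934 genes. The script was tested on simulated arrays that varied independently of each other, so that test does not cover arrays that deviate together. Same-numbered arrays deviated together (45 of 45 correlations from 0.168 to 0.741), which pairs the samples, so blocked values are given beside the named changes they add to the calls. Precision is limited by 3 arrays a group. Other probe sets were fitted over all probe sets. Promoters were searched with Python 3.11.15. Members, roles and lists were chosen with earlier results of these data known. Named were the 5 regulators and Hmgcs1, every called member (the rule asked for up to 12), up to 3 genes of each further list for each of 2 comparisons (KCl at 6 h in the control arm, RNAi on average). The alternatives are quantile normalization, log2(signal + 16), no filter, the mean of a gene's probe sets, the compared groups alone, the replicate block and leaving out each array.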

Additional observations from a re-analysis of the deposited data

How the results depend on the processing

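No called change turned its sign under an alternative. Changes that were not called were followed for the 5 regulators only. They turned their sign 39 times, 29 of them on leaving out 1 array, and none was called on either side. With the mean of probe sets Insig2 at 6 h in the control arm turned from -0.16 to 0.20. Counts of called members that moved by over 1.5 times were these. At 1 h of KCl in the control arm 1 member became 2 with log2(signal + 16), 4 with the replicate block and 0 with the compared groups alone. With the replicate block the control arm gave 15 between 1 h and 6 h in place of 7, the RNAi arm 7 at 1 h in place of 3, and RNAi against control 17, 16 and 15 at 0, 1 and 6 h in place of 8 each. RNAi against control at 0 h gave 4 with the compared groups alone. With the block 22 members were called at 6 h in the control arm in place of 15, and 24 with RNAi on average in place of 19. The block ended no call, and in each of these comparisons it raised the calls over all genes as well. The interactions stayed at 0 under every alternative. Of single named changes, 5 lost their call under quantile normalization, 10 without the filter, 8 with the mean of probe sets (Srebf2 at 1 h with RNAi among them, adjusted p = 0.109) and 13 with the compared groups alone.

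Leaving out 1 array at a time gave 1 to 2 calls at 1 h and 13 to 15 at 6 h in the control arm, 7 to 11 between 1 h and 6 h, 3 to 3 and 15 to 17 in the RNAi arm at 1 h and 6 h, and 4 to 11, 3 to 8 and 4 to 8 for RNAi against control at 0, 1 and 6 h. The average gave 17 to 21 and the interactions 0 to 0. Calls that held in all of these fits numbered 11 of 15 at 6 h in the control arm, 14 of 18 in the RNAi arm, and 17 of 19 for RNAi on average, but 4, 3 and 4 of 8 at single times. The causes were not tested. Where several probe sets of a gene disagree (such as Insig2, Scap, Sc5d, Stard4, Ggps1, Hsd17b7, Fdft1 and Acaca) or 1 is dim (Srebf2), the value is that of the brightest.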
